A study of Mus musculus with 5 samples.

Results

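Distal PU.1-only sites between genes were summits of the PU.1 list of Th9 cells that lay away from genes. They had no partner in the BATF, Input, goat Ig or rabbit Ig list. Members were chosen by the positions of the summits: on chromosomes 1 to 19 or X, more than 1000 bp from every transcript start of GENCODE M21, outside every gene of that annotation, and with no BATF, Input, goat Ig or rabbit Ig summit within 500 bp. The rule gave 2408 of the 8947 PU.1 summits. Most of them, 1966 of 2408, lay either in a simple repeat or in copies of 1 interspersed element. This count rests on the cut for simple repeats, whose share was 49.4% here and 19.4% under a stricter cut. The PU.1 motif GAGGAAGT was rarer in their 200 bp windows than in the genome between genes.

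PU.1, encoded by *Spi1*, is a transcription factor of the ETS family that binds purine-rich DNA around a GGAA core. It is best known from myeloid and B cells, and in CD4 T cells it takes part in the differentiation of Th9 cells, which secrete IL-9 and IL-21. BATF is an AP-1 factor that acts with IRF proteins in T cells, and ETS and IRF proteins can bind a shared element in which a GGAA core stands next to an IRF half-site.

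In ChIP-Seq, DNA fragments recovered with an antibody are sequenced, and the highest point of each pile of reads is called a summit. The series holds 1 library each for PU.1, BATF, Input (sheared chromatin without antibody), goat Ig and rabbit Ig, all from wild-type C57/Bl6j mice aged 7 weeks. The paper also reports ChIP-Seq of the factors IRF8, IRF4 and ETV6 in Th9 cells. Those maps were not used here, so PU.1-only does not mean without these factors. Naive CD4 T cells from spleen and nodes were activated on plates coated against CD3 and CD28, with IL-4 (20 ng/ml), TGF-β (2 ng/ml) and an antibody that blocks IFNγ. The labels give the duration only as a few hours, whereas the paper states an exact duration with its plots of binding peaks. The PU.1 antibody was raised in rabbit, so rabbit Ig was its control from the same species. There was no replicate, and depth is unknown, so every comparison was between sites of 1 library.

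Each summit is 1 bp wide and carries a score from the peak caller, taken here to be −log10 of a q-value. The paper names a different caller, so this reading is uncertain. Of the PU.1 summits, 8759 lay on the chosen chromosomes, 7413 of these were more than 1000 bp from a transcript start, and 4251 of these were outside genes. Leaving out summits near BATF removed 718 more, and summits near Input 1124 more. Goat Ig removed 1 and rabbit Ig removed 0. The member closest to a transcript start was 1001 bp away, with a score of 4.26, and the closest summit left out by that distance alone was 999 bp away, with a score of 2.08. For Input, the member nearest the threshold lay at 506 bp (score 4.26) and the nearest summit left out at 496 bp (score 2.73). For BATF these distances were 603 bp (score 2.84) and 483 bp (score 4.36). The nearest goat Ig summit of any member was 1592 bp away (score 4.66), and the 1 summit left out for goat Ig alone was 28 bp from it (score 21.2). The nearest rabbit Ig summit of any member was 1006 bp away (score 7.07). The member closest to a gene was 44 bp outside it, with a score of 3.19.

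The members had low scores. Their scores ran from 1.32 to 18.4, with a median of 3.37, against a median of 4.13 over the whole PU.1 list, whose highest score was 436.2. Low scores were shared with the PU.1-only distal summits inside genes, which had a median of 3.32. Only 184 different values occurred among the members, and 350 members shared the score 3.19, 323 the score 4.26 and 250 the score 2.25. A score above 5 was reached by 367 members, and a score above 10 by 10 members. These scores come from the list that chose the members and are a description.

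Simple repeats were the most common class of sequence at these sites under the cut used here. Windows of 200 bp were compared with themselves shifted by 1 to 6 bp, and those that matched at over 50% of bases under some shift counted as simple repeats. These were 1189 members (49.4%, exact 95% interval 47.4 to 51.4%). These intervals cover counting error only, and sites close together are not independent. With a cut of 70% in place of 50%, simple repeats made up 19.4% of members, less than the element described below, so the ranking depends on the cut. In windows 5000 bp to either side the share at 50% was 2.33% (1.92 to 2.79%), and over all 6545741 windows of the genome that met the positional part of the rule it was 2.72%. The members' share was 18.2 times that of the genome. Nearly all members lay in sequence that the reference masks as repetitive: 96.3% of windows (95.5 to 97%) were masked over more than 50% of their length, compared with 34.7% of genome windows and 28.5% of the flanking windows. Other distal PU.1 summits shared this trait. The share was 93.0% in the PU.1-only summits inside genes. Between genes it was 95.7% in summits with BATF away from control summits and 98.7% in those near Input without BATF.

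The repeats were mostly of few kinds. The 1189 windows fell into 48 repeat units, counted over all rotations and both strands, and the 6 most common units held 929 of them (78.1%). The unit AC, the common dinucleotide microsatellite of the mouse, was found at 412 members (17.1%, 15.6 to 18.7%) and in 0.707% of genome windows. The unit AAAG was found at 307 members (12.7%, 11.4 to 14.1%) and in 0.209% of genome windows, a ratio of 61.1. The unit AAG followed with 78 members, ACAT with 49, AG with 47 and AGAT with 36.

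Repeats of the genome were not taken evenly. The unit AG was found in more genome windows than AAAG, 32357 against 13658, yet at 47 members against 307, so that its ratio to the genome was 3.95. Repeats made only of A and T were nearly missing, with 1 member against 17165 genome windows, a ratio of 0.158. The units AT and A had 0 members each. Units made only of A and G together held 521 members (21.6%, 20.0 to 23.3%), and units made only of A and C held 423 (17.6%, 16.1 to 19.1%). The ratios to the genome of these families were 17.2 and 22.6. The unit AACCCT, which on its other strand is the TTAGGG repeat of vertebrate telomeres, was singled out after its values were seen: it was found at 8 members (0.332%) and in 184 genome windows (0.00281%), a ratio of 118.2. This ratio is not particular to that unit. Other rare units reached similar ratios, such as ACATGC with 121.7 at 6 members and ACACTC with 117.2 at 5 members.

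Some of the purine repeats carried the core letters of ETS sites many times over. Windows of the unit AAAG held GGAA on either strand 7.43 times on average, and those of the unit AAGG 21.9 times, compared with 2.20 times in the flanking windows and 0.112 times in windows of the unit AC. Windows of the unit AG, also purine, held it 1.49 times, below the flanking windows. An unbroken run of at least 30 purines or pyrimidines lay in 523 member windows (21.7%, 20.1 to 23.4%), in 3.16% of the flanking windows and in 2.74% of genome windows. It was present in 99.0% of the AAAG windows and in 0.485% of the AC windows.

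The strongest member shows this type of sequence. It lay on chromosome 12 at position 37810170 with a score of 18.4, 7556 bp upstream of a transcript start of *Dgkb* (ENSMUSG00000036095.11), which encodes a diacylglycerol kinase. Its window was 89.8% periodic with the unit AAAG and held a purine run of 129 bp. The 31 bp at its summit occurred 222856 times in the genome. A member on chromosome 4 at position 130286389, with a score of 10.6, had a purine run of 177 bp and lay 7184 bp upstream of *Serinc2* (ENSMUSG00000023232.17). Capitals mark the longest unbroken stretch of the repeat, its first unit included. All sequences are from GRCm38, plus strand.
chr12:37810120-37810219: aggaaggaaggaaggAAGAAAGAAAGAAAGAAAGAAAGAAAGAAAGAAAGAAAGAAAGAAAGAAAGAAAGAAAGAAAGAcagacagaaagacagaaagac
chr4:130286339-130286438: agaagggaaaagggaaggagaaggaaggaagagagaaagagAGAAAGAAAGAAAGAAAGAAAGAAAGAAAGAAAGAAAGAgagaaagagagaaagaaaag

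The units ACAT and AGAT had fewer members, and their highest scores were 8.05 and 7.68. Their median scores were 4.13 and 3.80, compared with 4.13 for AAAG and 3.85 for AC. The AGAT member lay 181216 bp downstream of the transcript start of *Foxo1* (ENSMUSG00000044167.6), a forkhead factor of T cell quiescence. The ACAT member lay 121051 bp upstream of *4931429L15Rik* (ENSMUSG00000056617.12). The AGAT stretch is shown, with capitals again on the longest unbroken repeat (GRCm38, plus strand).
chr3:52449502-52449601: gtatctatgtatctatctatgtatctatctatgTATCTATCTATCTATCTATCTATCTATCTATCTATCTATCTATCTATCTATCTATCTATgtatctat

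Among the 1219 members without a simple repeat, most came from 1 family of interspersed sequence. As a ruler for this family, an intact copy was taken on the plus strand of chromosome X from 92800638 to 92807237, a stretch of 6600 bp. It holds an open reading frame of 371 codons followed by one of 1281 codons, the layout of LINE-1 retrotransposons, elements that copy themselves through RNA and fill a large share of mammalian genomes. No repeat annotation was used, and the name rests on that layout alone. The copy was chosen after the members' sequences had been seen. Windows were placed on it when they shared at least 15 of their 186 words of 15 bases with it on either strand.

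Copies of this element held 777 members (32.3%, 30.4 to 34.2%) and 11.1% of genome windows. In the flanking windows the share was 7.19% (6.48 to 7.96%). Per 1000 genome windows of their kind there were 6.68 members in simple repeats, 1.07 on the element, 0.265 in other masked sequence and 0.0174 in unmasked sequence outside these classes. The remaining 368 masked members made up 15.3% and the 74 unmasked members 3.07% of all. The members ran along the element in both directions, 372 on its coding strand and 405 on the other.

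Summits crowded on some stretches of the element. The 500 bp from position 5501 to 6000, at the end of the long reading frame, held 247 of the 777 members (31.8%) but 14.2% of the genome windows placed on the element, or 2.40 members per 1000 windows. The stretch from 1001 to 1500, within the short reading frame, held 83 members, or 2.08 per 1000 windows. The long frame runs from 2103 to 5948, so most of the densest stretch lies in it as well. The other stretches wholly inside the long frame, between 2501 and 5500, were sparser. They ranged from 0.319 members per 1000 windows, from 4501 to 5000, to 0.860, from 5001 to 5500. The first 500 bp held 0 members among 4583 windows. At finer scale, 66 members lay between positions 5901 and 5950 and 64 between 5801 and 5850.

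Members on the element share sequence by the way the class was defined. The most shared 20 bases, picked from these same windows, occurred in 149 of the 777 windows (19.2%), around position 5917 of the ruler. Their share in the genome windows on the element was not counted. The member with the highest score in this class, 10.8, held these 20 bases. It lay on chromosome 16 at position 71416763, 855769 bp downstream of the transcript start of *Gbe1* (ENSMUSG00000022707.16), which encodes the glycogen branching enzyme. Its 200 bp are shown because they hold the stretch that the most members on the element share, with the shared 20 bases in capitals (GRCm38, plus strand).
chr16:71416663-71416862: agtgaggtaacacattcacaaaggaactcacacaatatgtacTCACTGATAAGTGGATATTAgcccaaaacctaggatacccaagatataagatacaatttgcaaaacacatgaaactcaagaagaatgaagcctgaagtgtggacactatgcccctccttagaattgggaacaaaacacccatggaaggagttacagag

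The 31 bp centred on the summit occurred once in the genome for 981 members (40.7%, 38.8 to 42.7%) and more than 100 times for 35.7%. In the flanking windows 82.3% (81.2 to 83.4%) occurred once. The median number of copies was 2138 for members on the element, of which 6.95% occurred once, and 1 for members in simple repeats, of which 57% occurred once. The 31 bp are shorter than the paired reads that the paper describes, so a pair of reads can be unique where the 31 bp are not. The part of these copies in the calling of the summits was not tested. Among the 981 members with a single copy, 69.1% were simple repeats and 5.50% lay on the element, an alternative added after the data were seen.

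The share of simple repeats was higher at higher scores. With the members divided into 4 groups by score, it was 33.9% in the lowest group, up to a score of 2.90, then 48.3%, 54.7% and 61.7%. The share on the element was 40.7% in the lowest group and 28.1% in the highest. Purine or pyrimidine runs were in 14.6% and 27.7% of these groups.

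The PU.1 motif was rarer than in the genome between genes. GAGGAAGT, searched on both strands, lay in 12 member windows (0.498%, 0.258 to 0.869%), compared with 1.29% (0.989 to 1.65%) of the flanking windows and 1.19% of all genome windows of the same length. The members' share depends on the window, at 0.0831% in 100 bp and 1.37% in 400 bp, and was compared with the genome only at 200 bp. The shorter GGAAGT, which GAGGAAGT contains, was in 5.90% (4.99 to 6.91%) of members, 11.5% of flanking windows and 11.2% of genome windows. By class, the interval for GAGGAAGT includes the genome's share in simple repeats, with 0.421% (0.137 to 0.979%) of members and 0.617% of genome windows, and on the element, with 0.901% (0.363 to 1.85%) and 1.32%. In sequence outside both, GAGGAAGT was in 0 of 442 members (0 to 0.831%) and 1.20% of genome windows. GGAAGT was in 1.60% (0.965 to 2.48%) of the members in simple repeats and 4.90% of the genome windows in simple repeats. In sequence outside simple repeats and the element, GGAAGT was in 5.88% (3.88 to 8.50%) of 442 members and 11.4% of genome windows. On the element the shares with GGAAGT were 12.5% (10.2 to 15%) and 11.2%, and the interval includes the genome's share. A match is only a description of the letters.

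The 12 members with GAGGAAGT were all in repeats, 5 in simple repeats and 7 on the element, and their median score was 3.72. Only 2 of them had the motif within 50 bp of the summit, and 0 of these were under 25% masked, so the rule for naming members with a motif in unmasked sequence named none.

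Motifs of the partner families were counted in the same way. The AP-1 letters TGACTCA or TGAGTCA were in 20 members (0.831%, 0.508 to 1.28%), 3.41% of flanking windows and 2.99% of genome windows. By class, the interval includes the genome's share in simple repeats, with 0.925% (0.463 to 1.65%) and 1.31%, and on the element, with 0.257% (0.0312 to 0.927%) and 0.318%, while in other sequence the shares were 1.58% (0.639 to 3.24%) and 3.39%. The ETS-IRF letters GGAANNGAAA were in 3.49% (2.79 to 4.30%) of members and 2.28% of genome windows. No class had a detectable excess of GGAANNGAAA: the shares were 5.21% (4.02 to 6.64%) and 4.49% in simple repeats and 3.17% (1.74 to 5.26%) and 2.17% in other sequence, and on the element members were lower, with 1.03% (0.446 to 2.02%) and 2.61%. The IRF letters GAAANNGAAA were in 8.14% (7.08 to 9.30%) of members and 3.50% of genome windows. Of the 196 members with GAAANNGAAA, 150 were simple repeats. By class, GAAANNGAAA was in 12.6% (10.8 to 14.6%) of members and 7.35% of genome windows in simple repeats, 2.06% (1.18 to 3.32%) and 3.37% on the element, and 6.79% (4.63 to 9.55%) and 3.40% in other sequence. The IRF8 motif of the study, a degenerate run of alternating T, was in 39.7% (37.7 to 41.6%) of members and 5.78% of genome windows. In simple repeats it was in 70.6% (68.0 to 73.2%) of members and 56.0% of genome windows, on the element in 0.901% and 0.634%, and in other sequence in 24.4% (20.5 to 28.7%) of members and 4.85% of genome windows. The motif was more frequent in the PU.1-only distal summits inside genes, at 44.9%, a difference of members minus those of -5.22 points (-8.17 to -2.27), and in the PU.1 and BATF distal summits between genes, at 58.5%, a difference of -18.9 points (-25.0 to -12.5). It was less frequent in the PU.1 distal summits between genes near Input and without BATF, at 22.0%, a difference of 17.7 points (14.5 to 20.7). Among all hexamers, ACACAT gained most over the flanking windows, from 18.7% to 39.3% of windows, counting both strands.

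A small group of members lay in windows with little masking. Of the 27 members under 25% masked, 15 had 1 copy of their central 31 bp, 4 had at least 65% GC, 7 were simple repeats by the letters, 0 lay on the element and 0 held GGAAGT. Over all members, 40.7% had 1 copy, 49.4% were simple repeats, 32.3% lay on the element and 5.90% held GGAAGT. The counts of repeats are tied to the choice by masking. For GGAAGT, 27 windows are too few to read a difference from. The median score of the 27 members was 3.99. The highest score among them, 10.7, belonged to a member on chromosome 8 at position 88454286, whose window was 78.5% GC with 0% masked, 67068 bp upstream of *Nkd1* (ENSMUSG00000031661.12), an inhibitor of Wnt signalling. The 31 bp at its summit occurred once in the genome. Next, with a score of 10.3, was a member on chromosome 9 at position 52035943, 11230 bp upstream of *Rdx* (ENSMUSG00000032050.17), the gene of the membrane linker radixin, in an unmasked array of GGGAA and GGTTAGG blocks. Capitals mark CG dinucleotides in the first sequence. In the other they mark the longest unbroken stretch that repeats every 5 bases. That is the length of the member's unit AAGGG, but the letters of this stretch differ from that unit (GRCm38, plus strand).
chr8:88454236-88454335: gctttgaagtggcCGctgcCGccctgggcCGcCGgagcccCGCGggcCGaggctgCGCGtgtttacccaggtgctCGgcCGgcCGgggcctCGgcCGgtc
chr9:52035893-52035992: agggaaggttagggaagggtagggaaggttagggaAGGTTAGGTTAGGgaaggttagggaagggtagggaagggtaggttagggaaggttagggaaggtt

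The sites differed from similar summits of the same library in their mix of repeats. Differences are given as the members' share minus the other share, with Newcombe's 95% interval. Simple repeats were in 56.0% of the 1934 PU.1-only distal summits inside genes, a difference of -6.67 percentage points (-9.64 to -3.69). The element was in 19.1% of those, a difference of 13.2 points (10.6 to 15.7). Purine or pyrimidine runs did not differ detectably, with 21.5% inside genes and a difference of 0.261 points (-2.21 to 2.71). The PU.1 motif also gave no detectable difference from these sites, at -0.0704 points (-0.565 to 0.377). The shorter GGAAGT was in 4.45% of them, a difference of 1.45 points (0.114 to 2.76).

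Summits between genes that BATF shared were poorer in the element. In the 258 PU.1 and BATF distal summits between genes away from control summits, simple repeats made up 81.8% and the element 10.9%, differences of -32.4 points (-37.1 to -26.9) and 21.4 points (16.7 to 25.2). GGAAGT was in 2.71% of these, a difference of 3.18 points (0.270 to 4.91). Summits near Input were richer in it. Among the 1123 PU.1 distal summits between genes near Input and without BATF, the element made up 53.6% and simple repeats 37.3%, differences of -21.3 points (-24.8 to -17.9) and 12.1 points (8.57 to 15.5). The unit AAAG was in 5.43% of the sites near Input, 7.32 points (5.36 to 9.14) below the members, whereas AGAT was in 6.68% of them, against 1.5% of members, a difference of -5.18 points (-6.85 to -3.75). GGAAGT was in 16.1% of the sites near Input, a difference of -10.2 points (-12.6 to -7.95). Purine or pyrimidine runs were in 8.10% of the sites near Input, a difference of 13.6 points (11.2 to 15.8). In the PU.1 and BATF sites they were in 16.7%, a difference of 5.05 points (-0.226 to 9.44).

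The members lay on all 20 chromosomes at distances from genes close to those of the sequence open to them. The median distance to the nearest transcript start was 23880.5 bp (95% interval of the median 22175 to 26163 bp), compared with 25669 bp over the genome windows. These starts include those of non-coding genes, and to the nearest start of a protein-coding gene the members' median was 89441.5 bp. The farthest member was 545955 bp away. Between 1000 and 5000 bp from a start lay 14.1% (12.8 to 15.6%) of members and 12.5% of genome windows, and beyond 100000 bp lay 11.8% (10.5 to 13.1%) and 13.6%. Members on the element were farther out, with a median of 31072 bp (28118 to 35083 bp), than members in simple repeats, with 22111 bp (20042 to 24467 bp).

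Density was 1.84 members per Mb of eligible sequence. It was lowest on chromosome X, with 1.54 per Mb, and highest on chromosome 10, with 2.23 per Mb. On chromosome X simple repeats were sparse: it had 0.374 members in simple repeats per Mb, compared with 0.908 over all chromosomes, and 0.785 on the element per Mb, compared with 0.593. Chromosome 16 had more on the element, 0.838 per Mb, while the element took 10.2% of its eligible windows. The element took 18.4% of the eligible windows of chromosome X and 11.1% over all, and simple repeats 2.06% and 2.72%. Few members lay close together: 78 (3.24%) had another member within 10000 bp, in 39 groups, and the median distance to the nearest other member was 288433 bp. An Input summit lay between 500 and 5000 bp from 205 members (8.51%).

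Genes of helper T cells were compared with all genes for members nearby. Of all 21755 protein-coding genes on these chromosomes, 15.2% had a member within 100 kb of a transcript start. This held for 4 of 25 cytokine genes (16%, 4.54 to 36.1%), 7 of 43 genes of T cell transcription factors (16.3%, 6.81 to 30.7%), 6 of 35 genes of T cell receptors and surface proteins (17.1%, 6.56 to 33.6%) and 3 of 24 PU.1 target genes of myeloid and B cells (12.5%, 2.66 to 32.4%). Each of these shares is near that of all genes.

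Among cytokine genes, *Il17a*, the signature cytokine of Th17 cells, had the closest member, 8250 bp upstream, in an ACACAG repeat with a score of 4.62. *Il3* and *Csf2*, neighbours that encode growth factors of myeloid cells, shared 1 member 26297 bp upstream of *Il3* and 43907 bp upstream of *Csf2*, in an AC repeat with a score of 6.30. At *Il9*, which encodes the defining cytokine of Th9 cells, the nearest member was 205941 bp upstream (score 2.25, unit ACATGC). At *Il21* the nearest member was 493823 bp downstream of the transcript start (score 3.99, unit AAAG). The paper reports binding of PU.1 and BATF at the promoters of *Il9* and *Il21*. Members exclude summits close to a transcript start, inside genes or near a BATF summit, so these distances do not bear on that binding.

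Among transcription factor genes, *Runx1* had a member 3553 bp upstream (score 3.19) in masked sequence outside both repeat classes. The member 10480 bp upstream of *Nfatc2*, an NFAT factor of T cell activation, was in sequence that was 15.5% masked and 57% GC, with a score of 4.26 and 1 copy of its central 31 bp. *Smad7*, an inhibitor of TGF-β signalling, had one 18829 bp upstream in an AC repeat (score 3.46), and *Tcf7*, which encodes TCF-1, had one 45191 bp upstream in an AC repeat (score 5.32).

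Among receptor genes, *Pdcd1*, which encodes PD-1, had a member 21538 bp downstream of its transcript start in an AG repeat (score 4.13), and *Il7r* had one 25732 bp downstream whose central 31 bp occurred 120 times (score 5.06). *Cd44*, an adhesion receptor of activated T cells, had one 36648 bp upstream in an AC repeat (score 5.07). *Il9r*, the receptor of IL-9, had one 37330 bp downstream with 6 copies (score 2.25), and *Il1rl1*, which encodes the IL-33 receptor ST2, had one 42739 bp upstream in an AC repeat (score 3.19). None of the 24 PU.1 target genes of myeloid and B cells had a member within 50 kb, a distance at which 1710 of all 21755 genes had one, so that 0 of 24 is too few genes to read a difference from. None of these 12 list genes, of which *Il3* and *Csf2* share 1 member, had GAGGAAGT in the window of its nearest member. Over all members the share was 0.498%, so these are too few windows to read a difference from.

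Further members among the 10 highest scores also lay in simple repeats. On chromosome 18, a member at position 28202750 (score 11.2) in an AAG repeat lay 2069997 bp upstream of *Pik3c3* (ENSMUSG00000033628.15), a lipid kinase gene, its nearest protein-coding gene. On chromosome 6, a member at position 138273261 (score 11.0) in an AAAG repeat lay 130407 bp downstream of the transcript start of *Mgst1* (ENSMUSG00000008540.11), a microsomal glutathione transferase. Also on chromosome 6, a member at position 140808474 (score 10.1) in an AC repeat lay 79190 bp downstream of that of *Gm11077* (ENSMUSG00000079264.1). Of the 10 members with the highest scores, 8 were simple repeats. The share was 49.4% over all members and 61.7% in the highest of the 4 score groups, and 10 sites are too few to read a difference from.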

How the data were processed

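For each library the authors deposited 1 bp summits, each with a score. The submitters' processing notes name mm10 and Bowtie2, and the summit names are those of MACS2. The score is taken as −log10 of the q-value of its own library, since no value lies below 1.3. The paper's methods instead name FindPeaks as caller and MACS for conversion of files, so the unit of the score is uncertain. The caller's options and control are not given. The members and gene lists were chosen with earlier results of these data known.

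Positions are 1-based on GRCm38, with genes from GENCODE M21 and sequence from GRCm38.p6, whose lower-case bases mark repeats. Distances, 200 bp windows, 31 bp copies on all assembled chromosomes and nearest genes were computed with Python 3.11.15, numpy 2.4.6, pandas 2.3.3 and scipy 1.17.1. The ruler element was the copy around the highest-scoring member whose 16000 bp region held the most common long reading frame (1300 codons between stops, in 52 regions) and repeated sequence for at least 2000 bp before it. Named, with some left out, were the 10 members with the highest scores, the best of the 6 most common units, up to 8 genes per list within 50 kb, *Il9* and *Il21*. Of the other PU.1 summits, 5 lacked a full window and were left out of the sequence shares. Shares have exact (Clopper-Pearson) intervals. The measures were tested on simulated data.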

Additional observations from a re-analysis of the deposited data

How the results depend on the processing

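Of 63 values under alternatives, 35 stayed within 1.5 times the count or within the 95% interval of the share or median, and 28 did not. Co-location distances of 200 and 1000 bp moved none of the 7 results. More than 5000 bp from every transcript start, the median distance was 30545.5 bp, and with protein-coding genes only 86094.5 bp. The former setting leaves out members near starts, and the latter leaves out starts. With control summits ignored, simple repeats made up 45.5%, runs 17.4%, masked windows 97.1% and the element 39.1%. Above the median score of the PU.1 list, 867 members were left, with 61.8% simple repeats, 27.8% runs and 25.3% on the element. The cause of these shifts was not tested.

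In 100 bp windows the PU.1 motif was in 0.0831%, simple repeats made up 51.8% and runs 19.6%. In 400 bp windows these were 1.37%, 42.9% and 24.1%, and masked windows 94.0%. GGAAGT was in 5.90%. Repeats of over 70% periodicity made up 19.4%, runs of at least 20 bp 24.6%, and summits on a masked base 94.8%. Every alternative for the element, and the last one here, was chosen after seeing the data. At 30 shared words the element made up 27.4%. Of the 981 members with 1 copy of their central 31 bp, 69.1% were simple repeats, 18% had runs, 93.4% were masked and 5.50% lay on the element, with a median distance of 21659 bp.

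The lists hold 1 library per antibody, without read depth, so a site missing from a list sets no limit on its signal. The intervals treat sites as independent. Repeat classes rest on letters alone. No paired analysis was possible because each antibody has 1 library.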
